A study of Mus musculus with 22 samples.

Results

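Genes of the striatal medium spiny neuron were read along whole-brain fractions of the mouse. They were Drd1, Drd2, Adora2a, Rgs9, Ppp1r1b, Gpr6 and Pde10a, that is 7 of the 20129 gene symbols that the array probes could be given. They were chosen by name, as genes known from the medium spiny neurons of the striatum, and each was read from its RefSeq-identified probe with the highest median over 22 arrays. In Transcriptome Tomography a frozen brain is sliced along 1 axis, the slices are pooled into consecutive fractions, and RNA is measured fraction by fraction, so that an expression density is known for each position. The 22 fractions came from 3 male C57BL/6J mice, an inbred strain. Mouse 1 gave 10 coronal fractions, mouse 2 gave 6 horizontal fractions and mouse 3 gave 6 sagittal fractions. Their age was postnatal day 7 by the titles but 3 days by the age field. A fraction stands on a single array, without replicate, and nothing here measures the spread between animals. The labels did not say at which end of the brain fraction 1 lay. Precision is limited by this number of arrays.

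Medium spiny neurons are the projection neurons of the striatum and make up most of its cells. They form a direct pathway, whose cells carry the D1 dopamine receptor and raise cAMP when dopamine binds, and an indirect pathway, whose cells carry the D2 dopamine receptor and the adenosine A2a receptor, which act on cAMP in opposite ways. Drd1 encodes the D1 receptor. Drd2 and Adora2a encode the D2 and A2a receptors, and Gpr6 encodes an orphan receptor of the indirect pathway that raises cAMP. The other genes are used by both pathways: Ppp1r1b encodes DARPP-32, a phosphatase inhibitor switched by cAMP-dependent kinase, Pde10a encodes a phosphodiesterase that breaks down cyclic nucleotides, and Rgs9 encodes a regulator of G-protein signalling that shortens the signal of dopamine and opioid receptors. Drd2 is also made by midbrain dopamine neurons and by the pituitary, and Ppp1r1b by neurons outside the striatum.

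Promoters were read from RefSeq (GRCm38.p6), from 250 bases before to 50 bases after the annotated start. Entries were found for 5 of the 7 genes, and Adora2a and Ppp1r1b had none. Drd1 and Pde10a each had a further entry, and the one lying upstream is printed. The sequences of 5 genes are shown because Drd1, Rgs9 and Pde10a passed the coronal test given below while Drd2 and Gpr6 did not. Capitals mark 3 motifs, searched on both strands, with overlapping matches joined. The GC box was searched as GGGCGG. An arm of the cAMP response element was searched as TGACG. The TATA box was searched as TATAAA.
Drd1 (chr13:54055609-54055908, minus strand): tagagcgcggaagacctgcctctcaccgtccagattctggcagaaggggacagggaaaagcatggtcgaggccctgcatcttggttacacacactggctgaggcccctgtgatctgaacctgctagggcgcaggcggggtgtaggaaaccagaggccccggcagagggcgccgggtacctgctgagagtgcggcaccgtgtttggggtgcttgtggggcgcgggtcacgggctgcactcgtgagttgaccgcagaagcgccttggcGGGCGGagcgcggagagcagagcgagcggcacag
Rgs9 (chr11:109298132-109298431, minus strand): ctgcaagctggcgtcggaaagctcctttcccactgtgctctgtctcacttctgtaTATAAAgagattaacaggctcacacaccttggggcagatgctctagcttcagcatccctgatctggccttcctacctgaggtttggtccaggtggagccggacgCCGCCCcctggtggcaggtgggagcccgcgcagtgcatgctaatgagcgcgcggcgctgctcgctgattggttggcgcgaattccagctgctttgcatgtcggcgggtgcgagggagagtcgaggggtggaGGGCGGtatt
Pde10a (chr17:8801495-8801794, plus strand): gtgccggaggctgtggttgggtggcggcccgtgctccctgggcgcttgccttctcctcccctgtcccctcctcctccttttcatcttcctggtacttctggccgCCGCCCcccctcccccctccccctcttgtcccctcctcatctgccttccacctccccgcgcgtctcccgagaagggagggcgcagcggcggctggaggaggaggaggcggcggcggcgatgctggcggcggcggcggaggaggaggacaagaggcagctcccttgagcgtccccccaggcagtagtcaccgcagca
Drd2 (chr9:49340153-49340452, plus strand): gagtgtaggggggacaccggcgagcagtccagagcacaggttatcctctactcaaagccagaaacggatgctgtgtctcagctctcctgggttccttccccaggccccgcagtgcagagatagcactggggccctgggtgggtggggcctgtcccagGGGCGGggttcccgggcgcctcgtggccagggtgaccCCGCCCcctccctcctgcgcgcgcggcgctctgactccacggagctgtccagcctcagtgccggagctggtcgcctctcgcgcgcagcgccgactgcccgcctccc
Gpr6 (chr10:41072241-41072540, minus strand): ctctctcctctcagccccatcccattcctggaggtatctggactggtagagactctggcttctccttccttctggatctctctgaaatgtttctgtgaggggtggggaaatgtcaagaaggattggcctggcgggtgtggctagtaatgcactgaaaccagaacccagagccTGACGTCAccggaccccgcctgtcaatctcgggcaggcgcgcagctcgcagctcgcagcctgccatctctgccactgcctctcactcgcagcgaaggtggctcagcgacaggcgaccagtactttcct
The GC box letters were present in the windows of Drd1, Rgs9, Pde10a and Drd2 and not in that of Gpr6, and 35.7% of the 32851 promoters in the table held them. The further windows of Drd1 and Pde10a held them too. The printed windows had 58.7% (Gpr6) to 71.3% (Pde10a) G and C bases, beside a median of 52.7% over all promoters. The window of Gpr6 held the TGACG arm on both strands, overlapping, and 20.8% of all promoters held that arm. The window of Rgs9 was the only one of the 5 printed with TATAAA, which 13.6% of all promoters held. A match is a description of letters and not evidence that a factor bound there.

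A level is the log2 of the processed intensity minus the log2 of the array's 75th percentile, so 0 is the 75th percentile and a step of 1 is a doubling. All 7 probes were well above background on all 22 arrays. Levels of different probes are joined only in summed levels, which the brightest probe leads, and in differences of 2 genes on the same array. In bulk fractions fewer cells of a type and less RNA per cell cannot be told apart. Between 29605 and 41965 of 55600 probes per array were well above background. On 7 arrays the slope of the spike-in controls, RNAs added in known amounts, was out of the range that Feature Extraction accepts. These were coronal fractions 1 and 2, horizontal fractions 1 to 3 and sagittal fractions 1 and 3, and a dim spike-in control, E1A_r60_a107, was brighter on them, with log2 signals of 6.39 to 8.24 against 2.96 to 4.92 on the others. Marker lists of brain regions placed the fractions. The summed level of 4 olfactory bulb markers was highest in coronal fraction 10 (5.92), and that of 4 cerebellar markers in coronal fraction 3 (7.08). The olfactory bulb, thalamus and cerebellum sums of the sagittal series were all highest in fraction 4 (3.08, 2.33 and 5.63). The cerebellum sum was nearly as high in fraction 6 (5.47).

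**Figure D1:**
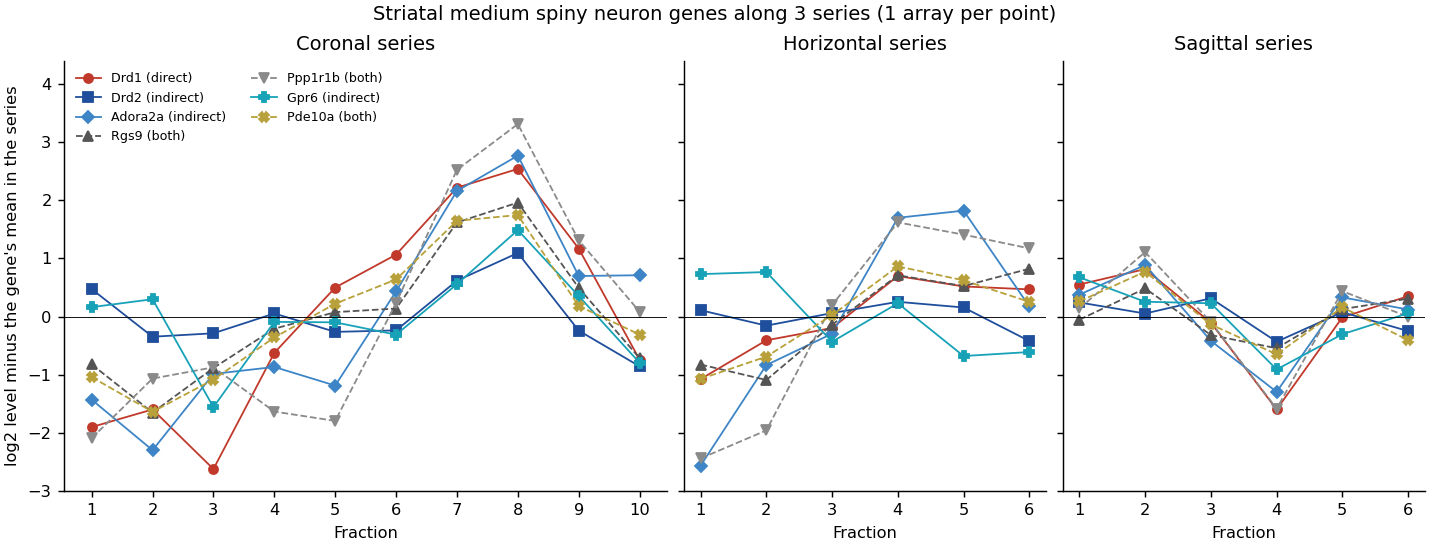
Each point is 1 array, with the fraction on the x axis and the log2 level minus the gene's mean in that series on the y axis. All 7 genes were highest in coronal fraction 8 and lowest, within the sagittal series, in fraction 4, and Gpr6 alone was highest in horizontal fraction 2.

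Along the coronal series the 7 genes shared the place of their highest level. Each was highest in fraction 8 and second highest in fraction 7, while 1.94% of the 16691 genes with a tested probe had those fractions as their highest 2. Fraction 8 alone was the highest for 4.98% of genes. Fractions 7 and 8 lay on the same slide as fractions 1 and 3 to 6. This is a description of single arrays, since each fraction was measured once. Change along the series was tested with limma, as a curve with linear and quadratic terms of the position, and 4 of the 7 genes passed at an adjusted p under 0.05, beside 19.8% of the 39621 probes tested. They were Drd1, Pde10a, Adora2a and Rgs9. The median fitted range, the distance between the highest and the lowest point of the fitted curve, was 2.78 log2 units over the 7 genes and 0.99 over all probes.

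Drd1, the receptor of the direct pathway, had coronal levels of -3.97, -3.67, -4.69, -2.69, -1.57, -1.0, 0.15, 0.48, -0.90 and -2.81 in fractions 1 to 10. The first 3 fractions were the lowest, and the level climbed over fractions 4 to 8 and dropped again by fraction 10. The highest and the lowest level differed by 5.17 log2 units, or 36.0-fold, a distance larger than that of 97.1% of genes. The fitted range was 4.34 log2 units, with a residual SD of 0.94 and an adjusted p of 0.0118. Of the 9 steps between neighbours in the order of the levels, 2 were larger than that SD, and the step from fraction 8 to fraction 7 (0.32) was not.

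Adora2a, the A2a receptor of the indirect pathway, had coronal levels of -1.62, -2.49, -1.18, -1.06, -1.38, 0.25, 1.98, 2.58, 0.51 and 0.52. Fractions 1 to 5 were low, fractions 7 and 8 were high and fractions 9 and 10 lay between them. The distance from fraction 2 to fraction 8 was 5.07 log2 units (33.7-fold). The fitted range was 3.77, with a residual SD of 0.97 and an adjusted p of 0.0227.

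Pde10a had coronal levels of 0.64, 0.04, 0.60, 1.32, 1.91, 2.32, 3.33, 3.43, 1.87 and 1.37. The climb from fraction 3 to fraction 8 was without a break, and fractions 7 and 8 differed by 0.10, well inside the residual SD of 0.61. The fitted range was 2.78 and the adjusted p was 0.0136. Rgs9 had levels of 1.70, 0.87, 1.63, 2.31, 2.60, 2.66, 4.14, 4.48, 3.01 and 1.80. It too was lowest in fraction 2 and dropped back after fraction 8, with a fitted range of 2.58, a residual SD of 0.68 and an adjusted p of 0.033. Fraction 2, an array with the spike-in slope out of range and alone on its slide, was the lowest for 36.6% of genes. Ppp1r1b had levels of 0.58, 1.60, 1.80, 1.04, 0.87, 2.90, 5.20, 5.99, 3.99 and 2.76. Its distance of 5.41 log2 units (42.5-fold) was the largest of the 7 genes, and its levels in fractions 2 and 3 stood above those in fractions 4 and 5, by less than its residual SD of 1.23. Its curve did not pass (fitted range 3.84, adjusted p = 0.0558).

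Drd2 and Gpr6, both of the indirect pathway, did not pass the coronal test. Drd2 had levels of -2.65, -3.47, -3.41, -3.07, -3.39, -3.36, -2.51, -2.03, -3.37 and -3.98. Fraction 1 was the third highest, near fraction 7, and the whole distance was 1.95 log2 units (3.87-fold). The fitted range was 0.53, with an adjusted p of 0.642, and 1.04 on the in-range arrays (adjusted p = 0.306). Gpr6 had levels of -0.92, -0.78, -2.64, -1.17, -1.18, -1.39, -0.52, 0.41, -0.73 and -1.88. Fractions 1 and 2 were close to fraction 9, the lowest level was in fraction 3, and the whole distance was 3.05 log2 units (8.29-fold), larger than that of 86.8% of genes. The fitted range of 0.57 gave an adjusted p of 0.767. On the in-range arrays, without fractions 1 and 2, it was 2.17 with an adjusted p of 0.0814. A quadratic curve is broad and follows a rise held by fractions 7 and 8 poorly, so a p that missed the threshold does not show a level profile.

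The count of 4 genes rested in part on single arrays and on the model. Without coronal fraction 2 it was 2, with Adora2a at an adjusted p of 0.076 (fitted range 3.43) and Rgs9 at 0.105 (fitted range 2.25). With the dim spike-in as a covariate only Drd1 passed, with the 15 in-range arrays alone Drd1 and Pde10a passed, with slide as a block Drd1, Adora2a and Pde10a passed (Rgs9 had an adjusted p of 0.0747 and a fitted range of 3.50), and in the coronal arrays fitted alone none passed. With the covariate the fitted ranges were 3.53 for Adora2a, 2.38 for Rgs9 and 2.48 for Pde10a, on the in-range arrays 3.20 for Adora2a and 2.40 for Rgs9, and in the coronal arrays fitted alone the same as in the joint model.

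**Figure D2:**
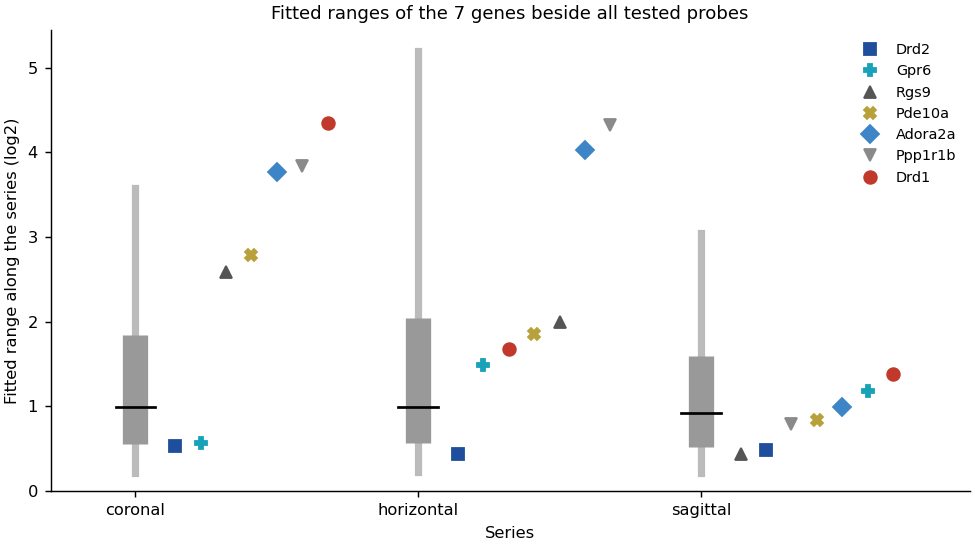
Fitted range along each series (log2) on the y axis, by series on the x axis. Grey bars span the 25th to 75th percentile of all 39621 probes tested, thin bars the 5th to 95th and black lines the median, and symbols are the 7 genes, with Drd1 highest in the coronal series (4.34) and Ppp1r1b in the horizontal series (4.32).

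In the horizontal series none of the 7 genes passed the limma test (3 had an unadjusted p under 0.05, as did 37.96% of all probes), beside 6.57% of all probes. Those 2604 probes became 9 without horizontal fraction 1. Fraction 4 held the highest level of 4 genes, as it did for 12.3% of all genes, and fraction 1 the lowest level of 4 genes, as for 17.8%. The median fitted range was 1.85 log2 units against 0.99 over all probes. Adora2a had levels of -3.36, -1.63, -1.08, 0.91, 1.03 and -0.62 in fractions 1 to 6. Fractions 4 and 5 were the highest, and the distance of 4.39 log2 units (21.0-fold) was larger than that of 96.2% of genes. Its adjusted p was 0.0641. It was 0.224 without horizontal fraction 1 (fitted range 2.61 in place of 4.03), 0.344 with the dim spike-in as a covariate (fitted range 3.40) and 0.159 with normexp correction (fitted range 2.35). On the in-range arrays, which hold only 3 horizontal fractions, it was 0.999999 (fitted range 1.65). It was 0.0342 with slide as a block, 0.033 after quantile normalization and 0.037 when tested among probes detected on all arrays. Without coronal fraction 1, 2 or 8, which enter through the shared spread, it was 0.0481, 0.049 and 0.0442.

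Ppp1r1b had horizontal levels of 0.55, 1.04, 3.19, 4.62, 4.41 and 4.17. Fractions 4 to 6 were close to each other and far above fractions 1 and 2, with an adjusted p of 0.0897. Drd1 had levels of -2.42, -1.75, -1.54, -0.65, -0.83 and -0.88. Its fractions 4 to 6 were also its highest 3, but the distance was 1.77 log2 units and no step between neighbouring levels exceeded the residual SD. Its adjusted p was 0.389. Pde10a had levels of 0.53, 0.91, 1.62, 2.46, 2.22 and 1.85, and Rgs9 had levels of 1.89, 1.62, 2.57, 3.42, 3.24 and 3.54. For both, fractions 4 to 6 were the highest 3, with adjusted p-values of 0.129 and 0.148.

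Gpr6 had another order of levels along this axis. Its horizontal levels were -0.01, 0.02, -1.18, -0.51, -1.42 and -1.35, so that fractions 1 and 2, the lowest 2 of Adora2a, were its highest. Drd2 did not share the order of Adora2a, since its lowest horizontal level was in fraction 6. Fraction 2 was the highest for 14.2% of genes. The adjusted p was 0.333. Horizontal fractions 1 to 3 were also the arrays with the spike-in slope out of range, so along this axis position and that array property cannot be told apart. Over the 22 arrays the level of Gpr6 had a Pearson r of 0.46 with the dim spike-in, as a description, while the r of the other 6 genes lay between -0.47 and 0.02. Its mean was -0.57 on the 7 arrays out of range and -1.16 on the 15 in range. The means of Drd1, Adora2a, Rgs9, Ppp1r1b and Pde10a were lower on the arrays out of range, by differences from -0.82 (Drd1) to -1.69 (Adora2a), and that of Drd2 differed by 0.12. With the dim spike-in as a covariate Gpr6's horizontal fitted range went from 1.48 to 0.46. Drd2 had the smallest distance, with levels of -3.08, -3.34, -3.13, -2.93, -3.03 and -3.61. That distance of 0.68 log2 units was larger than that of 24.6% of genes.

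**Figure D3:**
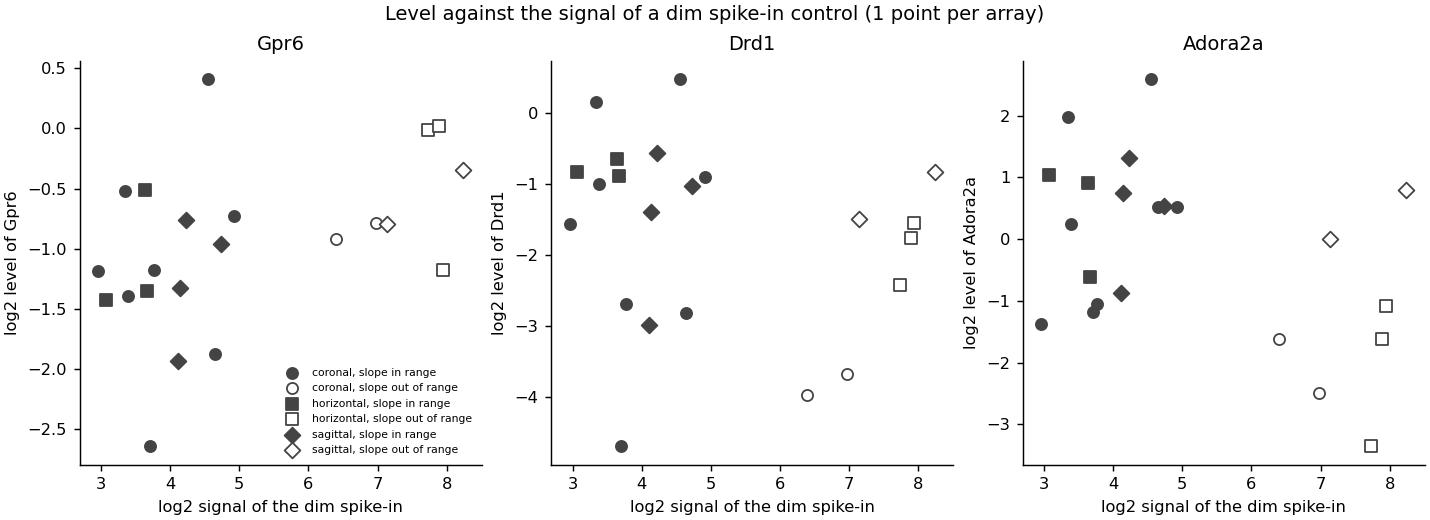
Levels of Gpr6, Drd1 and Adora2a (log2, y axis) against the log2 signal of a dim spike-in control (x axis), 1 point per array, with shapes for the series and open points for the 7 arrays with the spike-in slope out of range. Gpr6 had r = 0.46, Drd1 r = -0.20 and Adora2a r = -0.44.

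In the sagittal series all 7 genes had their lowest level in fraction 4, where 9.57% of genes did, and 5 had their highest in fraction 2, where 16.1% of genes did. Gpr6 was highest in fraction 1, as were 18.9% of genes, and Drd2 in fraction 3. Drd1 had levels of -0.83, -0.56, -1.49, -2.98, -1.39 and -1.03, and fraction 4 stood below the others by more than its residual SD. Adora2a had levels of 0.80, 1.31, 0.00, -0.88, 0.75 and 0.54. Ppp1r1b had levels of 3.57, 4.54, 3.34, 1.84, 3.87 and 3.43. In each of the 3 genes the fractions on both sides of fraction 4 were higher, and the distances from lowest to highest were 2.42, 2.19 and 2.70 log2 units.

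Pde10a had sagittal levels of 1.83, 2.34, 1.43, 0.92, 1.73 and 1.16, Rgs9 of 2.64, 3.18, 2.37, 2.15, 2.82 and 3.00. Fraction 4 stood less far below the others in these genes. In Pde10a, Rgs9, Adora2a, Gpr6 and Drd2 the step from fraction 4 to the next higher level was inside the gene's residual SD. Gpr6 had levels of -0.34, -0.76, -0.79, -1.93, -1.32 and -0.96, and Drd2 of -3.41, -3.60, -3.33, -4.08, -3.57 and -3.90. Drd2 again had the smallest distance of the 7 genes (0.75 log2 units). Fraction 4 was the one in which olfactory bulb, thalamus and cerebellum markers were highest in sum and the 5 markers of cortical projection neurons lowest (3.40). Of these 5, Tbr1 was lowest in fraction 4 and the other 4 in fraction 5. The 4 olfactory bulb markers were each highest in fraction 4, but cerebellar Pcp2 and Barhl1 in fraction 6, thalamic Tcf7l2 in fraction 5 and Prkcd in fraction 1. The cerebellar sum changed little over fractions 2 to 6 (5.29 to 5.63). The part of the makeup of fraction 4 in the result was not tested.

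No gene of the 7 passed the sagittal tests in limma. For the linear term, a slope across the brain, 10.2% of all probes passed, and for the quadratic term, the middle against both sides, 0.0303% passed. Without sagittal fraction 6 the number of probes that passed for the linear term fell from 4046 to 0. Unadjusted p-values under 0.05 numbered 0 for both terms, beside 24.1% and 14.8% of all probes. The sagittal linear terms ran from -0.84 (SE 0.74) for Pde10a to 0.15 (SE 0.82) for Rgs9, all within 2 SE of 0, and the quadratic terms from 0.03 (SE 0.46) for Drd2 to 1.05 (SE 0.86) for Drd1. The median fitted range, 0.84 log2 units, was below that of all probes (0.92).

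**Figure D4:**
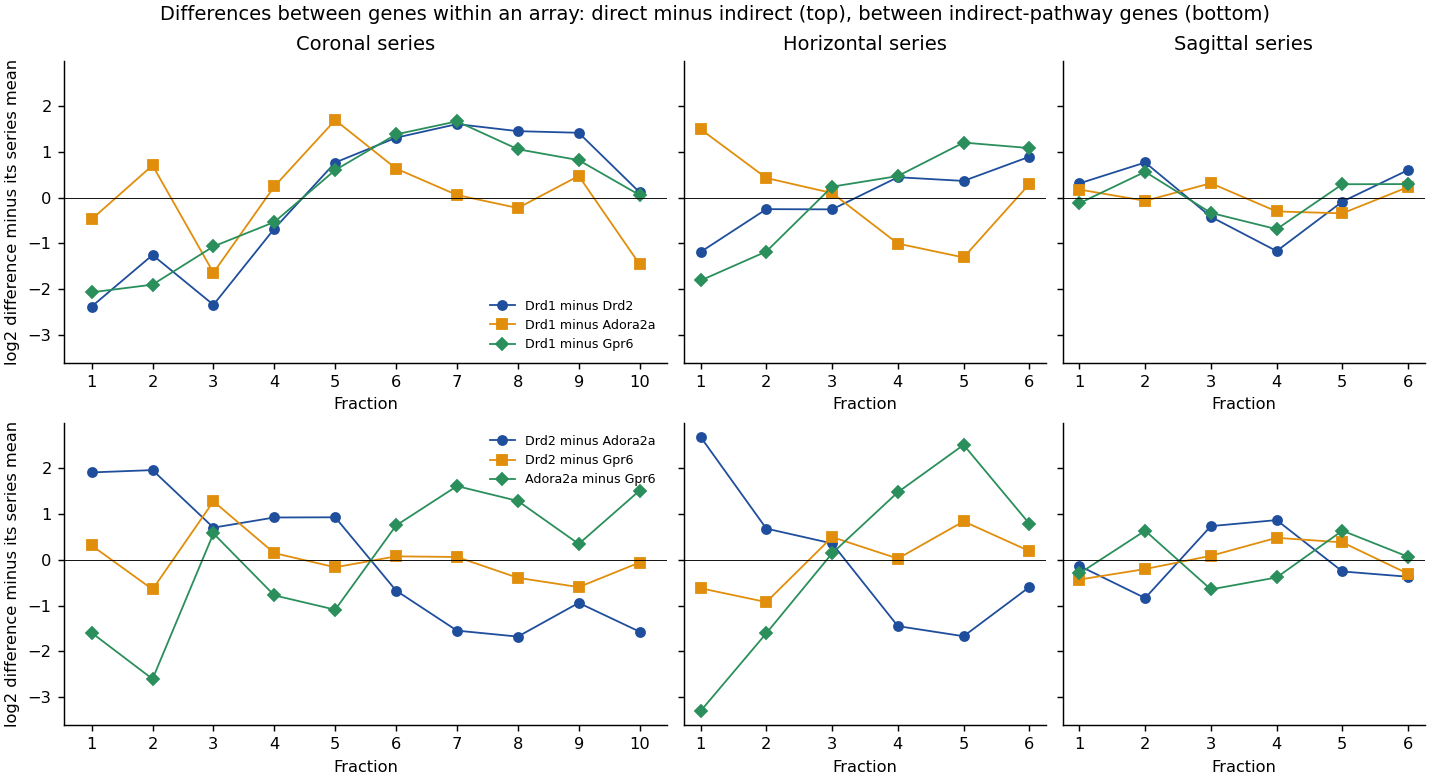
Difference of the log2 levels of 2 genes on the same array minus its mean in the series (y axis) by fraction (x axis), with Drd1 minus the 3 indirect-pathway genes above and the differences among those 3 below. Drd1 minus Drd2 and Drd1 minus Gpr6 climbed from below -2.0 to above 1.6 along the coronal series, and Drd1 minus Adora2a showed no such course.

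The direct- and indirect-pathway genes were compared through the difference of their log2 levels on the same array, in which the scaling of the array cancels. Only the course of a difference along a series is read, as its distance from the series mean. The test was the fit of a linear plus quadratic curve against permuted slab positions, adjusted over 18 tests (6 pairs of genes in 3 series), of which 9 set Drd1 against an indirect-pathway gene. The measure was the share of variance fitted (R2). Of these 9 tests 2 passed, both in the coronal series, and 4 had an unadjusted p under 0.05.

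Drd1 rose against Drd2 along the coronal series. The centred difference was -2.38, -1.25, -2.34, -0.68, 0.76, 1.30, 1.60, 1.45, 1.41 and 0.11 in fractions 1 to 10, so fractions 1 to 4 were all below the mean and fractions 5 to 10 all above it. The curve had a fitted range of 4.16 log2 units (R2 = 0.82, permutation test, p = 0.00329, adjusted p = 0.0197). Without coronal fraction 1 the adjusted p was 0.06 (fitted range 3.67) and without coronal fraction 2 it was 0.0511 (fitted range 4.46), while on the coronal arrays with the slope in range, fractions 3 to 10, it was 0.0143.

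Drd1 rose likewise against Gpr6. That difference was -2.07, -1.90, -1.07, -0.53, 0.60, 1.38, 1.66, 1.05, 0.82 and 0.05. It climbed at every step from fraction 1 to fraction 7, with a fitted range of 3.78 log2 units (R2 = 0.91, permutation test, p = 0.00031, adjusted p = 0.00324). The adjusted p stayed between 0.00466 and 0.0234 when each coronal fraction was left out in turn, and was 0.0143 on fractions 3 to 10.

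Drd1 and Adora2a had no such course. Their coronal difference was -0.47, 0.70, -1.64, 0.24, 1.69, 0.63, 0.06, -0.23, 0.47 and -1.45, with high and low fractions interleaved (fitted range 1.64, permutation test, adjusted p = 0.444). The SD of this difference over the coronal fractions was 1.01 log2 units, against 1.57 for Drd1 minus Drd2 and 1.34 for Drd1 minus Gpr6. A p above the threshold does not show that the profiles are alike, and single fractions still differed by up to 3.33 log2 units.

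The indirect-pathway genes were compared with each other in the same way. Drd2 fell against Adora2a along the coronal series, with centred differences of 1.90, 1.95, 0.70, 0.92, 0.93, -0.67, -1.55, -1.68, -0.94 and -1.57. All of fractions 1 to 5 lay above the mean and all of fractions 6 to 10 below it (fitted range 3.99, permutation test, adjusted p = 0.00324). On fractions 3 to 10 the adjusted p was 0.0688 and the fitted range 2.83. Adora2a minus Gpr6 did not pass (adjusted p = 0.0688 by permutation). Its adjusted p by permutation was 0.0447 with a linear slope only, 0.0499 without coronal fraction 3 and 0.448 on fractions 3 to 10, where the fitted range was 1.74 in place of 3.36. Drd2 minus Gpr6 did not pass, with an SD over the coronal fractions of 0.55 log2 units, the smallest of the 6 pairs (adjusted p = 0.725 by permutation).

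Horizontal differences were large but none passed. Drd1 minus Gpr6 was -1.81, -1.18, 0.24, 0.47, 1.20 and 1.08, and Drd1 minus Drd2 was -1.19, -0.25, -0.26, 0.44, 0.36 and 0.89, so both differences were lowest in fraction 1 (adjusted p = 0.06 and 0.0667 by exact permutation over 720 orders). Drd1 minus Adora2a was 1.49, 0.43, 0.10, -1.0, -1.31 and 0.29, the opposite direction up to fraction 5 (exact permutation, adjusted p = 0.13). The largest course of any pair was that of Adora2a minus Gpr6, from -3.30 in fraction 1 to 2.50 in fraction 5 (exact permutation, adjusted p = 0.06). The smallest unadjusted p that 6 horizontal fractions allow is 0.00278. In a test of the linear slope alone Drd1 minus Drd2 and Drd1 minus Gpr6 passed in this series too (adjusted p = 0.0447 for both by exact permutation). Fractions 1 to 3 were the arrays with the slope out of range, as above.

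Sagittal differences were the smallest. The SD of Drd1 minus Adora2a over the 6 fractions was 0.28 log2 units, that of Drd1 minus Gpr6 0.47 and that of Drd1 minus Drd2 0.72. No sagittal pair passed, and the lowest adjusted p was 0.0806 by exact permutation, for Drd2 minus Gpr6.

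Correlations over the 22 fractions are given as a description, since the fractions of a series share a brain and neighbouring positions. The highest r among the 7 genes was 0.92, between Rgs9 and Pde10a, followed by 0.90 between Adora2a and Ppp1r1b and 0.88 between Drd1 and Rgs9. The r of Drd1 was 0.73 with Adora2a, 0.54 with Gpr6 and 0.31 with Drd2. Within the coronal, horizontal and sagittal series Drd1 and Adora2a had r of 0.83, 0.95 and 0.95, and Drd1 and Gpr6 had r of 0.70, -0.66 and 0.87. Adora2a and Drd2, of the same pathway, had r of 0.24.

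Among the 16691 genes with a tested probe, the 7 genes themselves left out, those whose levels were most like Drd1 over the 22 fractions included Arpp21 (r = 0.92), a cAMP-regulated phosphoprotein, and Gng7 (r = 0.90), a G-protein subunit of the striatum. For Rgs9 they were Arpp21 (0.94), Rarb (0.91), a retinoic acid receptor, and Inf2 (0.89), an actin regulator, with Pde10a (0.92) nearer than Rarb. The same 3 genes in the same order were most like Ppp1r1b (0.90, 0.89 and 0.87), with Adora2a (0.90) nearer than Rarb. For Pde10a they were Rasd2 (0.94), a small GTPase of the striatum, Inf2 (0.92) and Cacna2d3 (0.88), a calcium channel subunit, with Rgs9 (0.92) nearer than Cacna2d3. For Adora2a they were Inf2 (0.89), Slc35d3 (0.87) and Pgam2 (0.87), and Ppp1r1b was nearer than any of them. Drd2 and Gpr6 had other neighbours. Those of Drd2 were Actr1b (0.77), Rsph3a (0.76) and Zfp94 (0.74), and no gene passed an r of 0.85. Those of Gpr6 were Cplx3 (0.88), Pnlip (0.83) and Mhrt (0.81). The member most like Gpr6 was Drd2, at an r of 0.56 and rank 751.

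**Figure D5:**
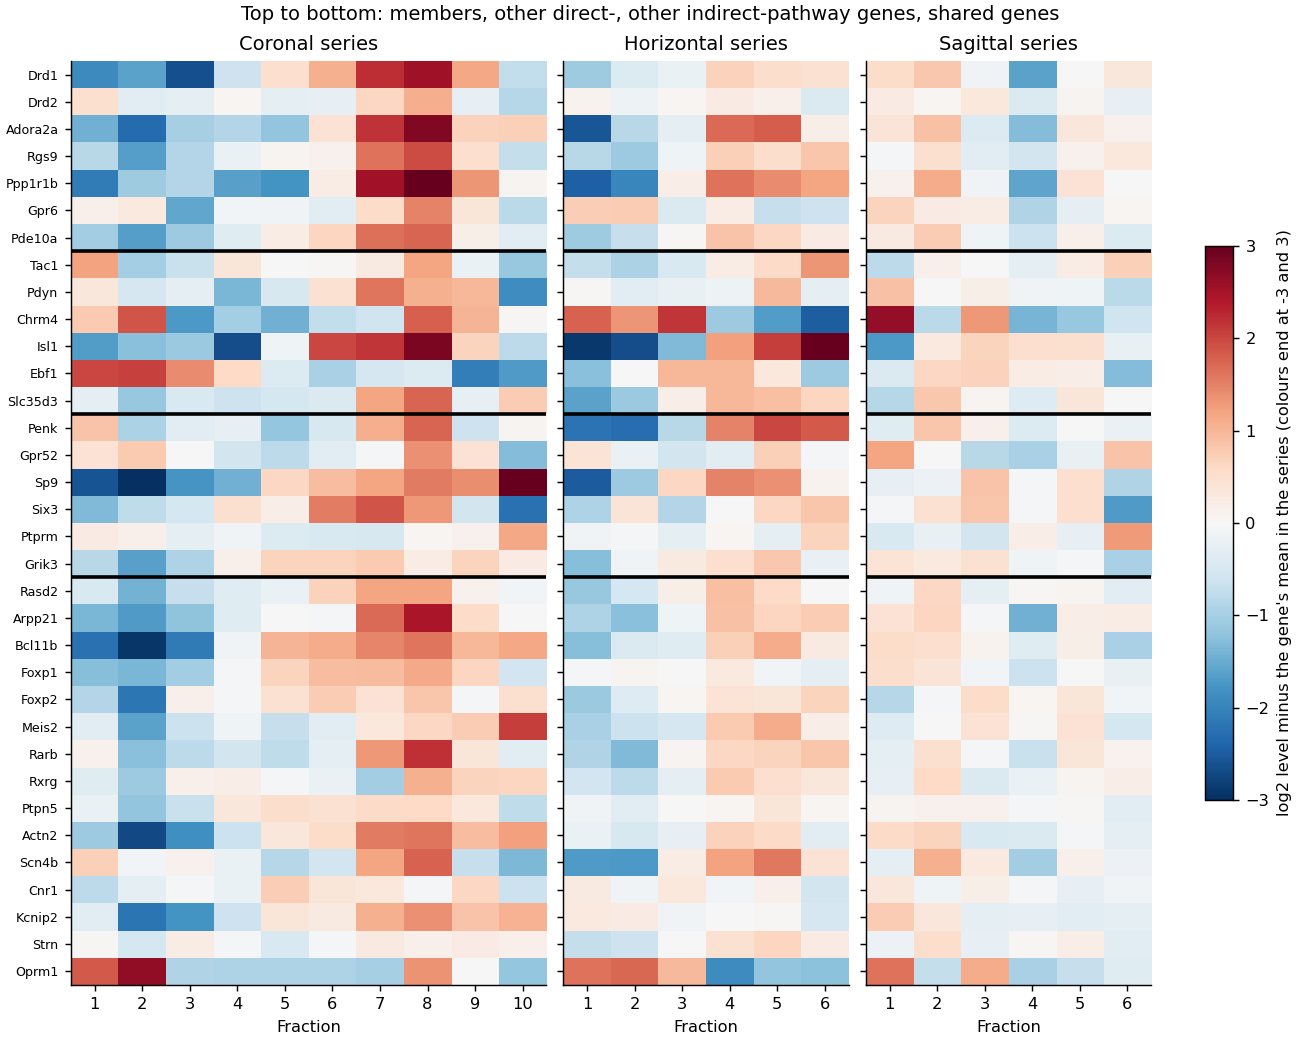
Log2 level minus the gene's mean in the series, by fraction (columns) and gene (rows), with black lines between the 7 genes, 6 other direct-pathway genes, 6 other indirect-pathway genes and 15 of the 16 shared genes. Coronal fractions 7 and 8 were the highest 2 in 10 of the 16 shared genes, in 3 of the 6 direct-pathway and in 1 of the 6 indirect-pathway genes, beside 1.94% of all genes. Those 3 include Pdyn, well above background on 5 of 10 coronal arrays.

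Other genes of the 2 pathways were counted from lists chosen by role. Of the 16 shared genes, 11 passed the coronal test, all with a positive linear term, beside 19.8% of all probes. Fraction 8 held the highest coronal level of 11, beside 4.98% of genes, and fraction 2 the lowest of 12, beside 36.6%. Fraction 2 had the spike-in slope out of range, and without it the coronal count over all probes fell from 7855 to 5073. The median coronal fitted range of the 16 genes was 2.35 log2 units. Those with a large range included Bcl11b, a transcription factor of medium spiny neurons (4.66, adjusted p = 0.000542), Actn2, an actin crosslinker (3.85, adjusted p = 0.00379), Arpp21 (3.12, adjusted p = 0.0218) and Kcnip2, a potassium channel partner (3.00, adjusted p = 0.00952). None of the 16 passed the horizontal or either sagittal test in limma, with 7 at an unadjusted p under 0.05 for the horizontal curve, beside 37.96% of all probes, and 0 for the sagittal linear and quadratic terms, beside 24.1% and 14.8%.

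Of the 6 other direct-pathway genes, 5 could be tested and 2 passed along the coronal series, beside 19.8% of all probes, and 2 along the horizontal series, beside 6.57%. Isl1, a transcription factor of developing direct-pathway neurons, had its highest level in fraction 8 (fitted range 3.82, adjusted p = 0.0496, well above background on 9 of 10 arrays). Ebf1, another such factor, ran the other way, from 1.67 in fraction 1 down to -2.42 in fraction 9 (fitted range 4.15, adjusted p = 0.000155). Both passed along the horizontal series too, Isl1 with a fitted range of 7.02 (adjusted p = 0.0222, well above background on 4 of 6 arrays) and Ebf1 with 2.29 (adjusted p = 0.0212). None passed a sagittal test, where 1 had an unadjusted p under 0.05 for the quadratic term, beside 14.8% of all probes.

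Of the 6 other indirect-pathway genes, 5 could be tested and 4 passed along the coronal series, beside 19.8% of all probes. In the horizontal series 3 passed, beside 6.57%, and for the sagittal linear term 1, beside 10.2%. Sp9, a transcription factor of indirect-pathway neurons, had a fitted range of 6.36 (adjusted p = 0.000139, well above background on 7 of 10 arrays) and was highest in fraction 10, at the olfactory end, not in fraction 8. Six3, a factor of the same lineage, passed with 3.14 (adjusted p = 0.00559), Grik3, a kainate receptor subunit, with 2.11 (adjusted p = 0.00555) and Ptprm, a receptor phosphatase, with 1.46 (adjusted p = 0.00958, also on 7 of 10 arrays). Ptprm ran the other way, lowest in coronal fraction 7 (-4.38) and highest in fraction 10 (-2.72). Penk, the precursor of enkephalin, was highest in coronal fraction 8 (6.13) but did not pass there (fitted range 0.66, limma adjusted p = 0.796). It passed along the horizontal series with a fitted range of 5.09 (adjusted p = 0.0301), as did Sp9 (4.04, adjusted p = 0.0175, on 5 of 6 arrays) and Grik3 (1.91, adjusted p = 0.0491). These 3 calls carry the limit on horizontal calls given above. Ptprm passed the sagittal linear test (linear term 1.53, adjusted p = 0.0108). Its highest sagittal level was in fraction 6 (-2.46), and without that fraction no probe passed for this term.

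Of the 24 genes of cAMP and dopamine signalling, 9 passed along the coronal series, beside 19.8% of all probes, all with a positive linear term. Of the 24, 7 were highest in fraction 8, beside 4.98% of genes, and 16 were lowest in fraction 2, beside 36.6%. Of the 9, those with the largest range were Pde2a, a phosphodiesterase (4.03, adjusted p = 0.0014), Gng7 (3.80, adjusted p = 0.00519), Gnal, the stimulatory G-protein subunit that couples the D1 and A2a receptors (2.29, adjusted p = 0.0109), Gnao1, an inhibitory type subunit (2.26, adjusted p = 0.00327) and Prkar1b, a regulatory subunit of cAMP-dependent kinase (2.05, adjusted p = 0.023). Gnao1 and Prkar1b were highest in coronal fraction 6, not in fraction 8. Beside 6.57% of all probes, 1 gene of the 24 passed along the horizontal series, Gpr158, an orphan receptor that binds the RGS7 family (1.64, adjusted p = 0.0417), with the limit on horizontal calls given above. None passed a sagittal test in limma, with 4 and 0 at an unadjusted p under 0.05 for the linear and quadratic terms, beside 24.1% and 14.8% of all probes.

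Cell types that share these genes were read from marker lists. The 5 markers of midbrain dopamine neurons were detected on every array, and their summed level lay between 2.54 in coronal fraction 2 and 5.26 in coronal fraction 4. Horizontal sums lay between 1.42 and 4.58, sagittal sums between 2.84 and 3.96. Slc6a3, the dopamine transporter that defines those neurons, peaked in fraction 5 of the coronal series (3.30), fraction 5 of the horizontal (1.90) and fraction 3 of the sagittal (1.5). Slc18a2 and Nr4a2, of the same list, were highest in horizontal fraction 4, which was also the highest for Drd2, and Slc18a2 was highest in sagittal fraction 3, again with Drd2. Others of the list were highest where Drd2 was lowest, Th in coronal fraction 10 and sagittal fraction 4 and Ddc in horizontal fraction 6 and sagittal fraction 4. Of the 6 pituitary markers 1 to 6 were detected on an array, and their sum was highest in horizontal fraction 6 (3.94), the fraction with the lowest horizontal Drd2 level. The 5 markers of cortical projection neurons were highest in sum in coronal fraction 9 (5.45). The 3 of striatal cholinergic neurons were highest in sum in coronal fraction 8 (1.56), where Lhx8 was highest, while Chat and Slc5a7 were highest in coronal fraction 1. Over the 22 fractions the summed level of the 7 genes had an r of 0.70 with that of the other indirect-pathway genes, as a sum led by Ppp1r1b (5.99 of a log2 sum of 6.72 in coronal fraction 8) against a sum led by Penk (6.13 of 6.22). It had an r of 0.49 with that of the other direct-pathway genes, in which Tac1 could outweigh the rest (4.88 of a log2 sum of 5.05 in coronal fraction 1), and -0.16 with that of the shared genes, in which Oprm1 did (8.36 of 8.49 in coronal fraction 2). The r was 0.12 with the midbrain dopamine markers, -0.06 with the pituitary markers, 0.52 with the cortical markers, 0.43 with that of the cholinergic markers, 0.35 with that of 3 choroid plexus markers and -0.44 with that of the 4 cerebellar markers, as a description. The part of other cell types in the members' levels was not tested.

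Genes with several probes were checked against each other. Rgs9 and Pde10a each had a further probe that was detected on all 22 arrays and gave the same profile (r = 1.00 and 0.98), and with these probes the same 4 genes passed along the coronal series. A probe for another Rgs9 transcript, A_66_P140185, also detected on all arrays, differed. Its r with the main Rgs9 probe was -0.35 and its coronal adjusted p was 0.391. Another Pde10a probe was not well above background on any array.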

How the data were processed

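Total RNA of 22 fractions was measured on Agilent SurePrint G3 Mouse arrays in 1 colour (Cy3). Per the file headers, the authors extracted 1 processed intensity per spot, background-subtracted and on a linear scale, with Feature Extraction 10.10.1.1. A deposited log2 table, set against the scanner values, matched log2 intensity scaled to each 75th percentile, uncentred, and was used as an alternative. No spot was saturated. Control and outlier spots were left out, the log2 values of a probe's spots were averaged, and each array was scaled to the 75th percentile of its 55600 analysed probes. Symbols came from RefSeq, used for names. A deposited flag marked a probe well above background. Tests used 39621 probes, each with a detected fraction in every series.

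Change along a series was tested in R 4.3.3 with limma 3.58.1 in a joint model of the 22 arrays, each series having its own intercept, slope and quadratic term (9 coefficients, 13 residual degrees of freedom), and Benjamini-Hochberg adjustment over all probes tested. The spread is the scatter of single arrays around the curves. The methods of the study name no test. Differences between 2 genes were tested by permutation of positions, exact for 6 fractions and with 100000 resamples for 10 (Python 3.11.15, numpy 2.4.6, pandas 2.3.3; figures with matplotlib 3.10.9). Tested on simulated data with 200 changed per test among 39621 probes, the limma model recovered 100%, 99.5%, 99% and 100% for the coronal, horizontal, sagittal linear and sagittal quadratic tests, with 10, 3, 12 and 11 false calls. The simulated terms were 10 times the residual SD of the probe, so smaller changes were not tested. Simulated noise was independent between probes and arrays, and coronal and horizontal changes were linear only. Peaked courses and shifts of whole arrays were therefore not tested. The sagittal series lay on 1 slide with 2 coronal arrays, the horizontal series on a slide of its own, and the other coronal arrays on 2 slides.

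The members and all lists were chosen with earlier results of these data known. All 7 members are described. From each list all genes were counted and the called genes with the largest fitted range were named, at most 5. Most alike genes were the 3 with the highest Pearson r, members left out. An item that these rules would name is not reported here. The labels give slabs of 500 µm and the methods a different thickness, so positions are slab numbers, and the midpoint was used where coronal fraction 10 and sagittal fractions 1 and 6 pooled several slabs. Alternatives were other scalings, normexp background correction (offset 50, on the median signal, since the mean signal was not used here), other filters, slide as a block, a spike-in covariate, fewer arrays, other curves, other probes and leaving out each fraction.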

Additional observations from a re-analysis of the deposited data

How the results depend on the processing

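Of the 7 genes, 4 passed along the coronal series. The count was 1 with the dim spike-in as a covariate (Drd1), 2 on arrays with the slope in range (Drd1 and Pde10a), 1 with a linear term only (Adora2a) and 0 with the coronal series alone. It was 3 to 5 under the other alternatives, and 2 to 5 when each fraction was left out, with the 2 without coronal fraction 2. It was 5, with Ppp1r1b added, after median centring (adjusted p = 0.0434), with normexp (0.0424), among probes detected on all arrays (0.0315), without coronal fraction 5 (0.0395) or 10 (0.0235), and with a cubic term, chosen after seeing the data (0.0265). The count of 0 along the horizontal series was 1 (Adora2a) after quantile normalization, among probes detected on all 22 arrays and with slide as a block, and 0 to 1 when each fraction was left out. The 0 for both sagittal terms held under every alternative run. Of 9 tests of Drd1 against an indirect-pathway gene 2 passed, 4 with a linear slope only, and 1 to 3 when each fraction was left out. The alternative with coronal arrays in range, also chosen after seeing the data, gave 2. No called gene or pair changed direction. The cause of these changes was not tested. Over all probes, the coronal count of 7855 lay between 635 (series alone) and 9281 (normexp), the horizontal count of 2604 between 0 (series alone) and 5379 (slide as a block), the sagittal linear count of 4046 between 0 and 6393 and the sagittal quadratic count of 12 between 0 and 1001, apart from leaving out fractions. When each fraction was left out these counts ran from 4871 to 10713 (without coronal fractions 6 and 1), from 9 to 6530 (without horizontal fraction 1 and coronal fraction 2), from 0 to 4965 (without sagittal fraction 6 and coronal fraction 1) and from 0 to 394. The 4 genes of the pair tests had no other RefSeq-identified probe, so that alternative was not run for them, and no member needed a bound, since all were well above background throughout. No paired analysis was possible because the fraction numbers are positions along different axes in different mice.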

Other observations

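Some genes of the lists had high correlations with a spike-in control, as a description over the 22 arrays. Rgs7bp, a membrane anchor of RGS proteins, had a Pearson r of 0.92 with the dim spike-in and a mean level of 8.30 on the 7 arrays with the slope out of range against 3.92 on the 15 in range. Chrm4, the M4 muscarinic receptor of direct-pathway neurons, had r = 0.90 with means of -1.16 and -3.79, Oprm1, the mu opioid receptor, r = 0.88 with means of 7.57 and 5.01, and Chat, which makes acetylcholine in striatal interneurons, r = 0.83 with means of -0.20 and -2.87. These genes were named after their values were seen, and what sets this relation was not tested. Lhx8, another marker of striatal cholinergic neurons, peaked in fraction 8 of the coronal series (1.27), fraction 5 of the horizontal (0.89) and fraction 3 of the sagittal (-0.18).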
